A study of Mus musculus with 21 samples.

Results

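Distal regions of open chromatin in embryonic heart endothelium that carried no GATA4 peak are described here. They were 26610 of the 136513 regions obtained by joining the peaks of 2 ATAC libraries of sorted endothelial cells (EC). Of those regions, 101038 held a peak of both EC libraries, and 86829 of these had their midpoint more than 1 kb from every transcription start of the gene table. A GATA4 peak overlapped 24665 of the 86829, which left 62164 without one. From the 62164, the 26610 were selected on having a peak in at least 4 of 6 further ATAC libraries from Gata4 ko and het hearts. The same last step kept 17714 of the 24665 regions with GATA4, and these serve as the comparison. GATA4 lists of both lineages counted: of the 17714, 14629 held a Tie2-Cre GATA4 peak and 3085 a Tnnt2-Cre peak alone. Peak presence in the ATAC and GATA4 lists therefore chose the regions and is given as a description.

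The study profiled ventricles of mouse hearts at E12.5, a mid-gestation stage, by GATA4 pull-down, ATAC and RNA sequencing. For the ko and het libraries, 3 each, pregnant mice received 1 mg of tamoxifen by gavage at E9.5 to activate the endothelial driver Cdh5(Pac)-CreERT2, and 20000 GFP-positive cells with the Rosa26mTmG reporter were sorted per library. The genotype is given only by the names G4ko and G4het, and no RNA of these cells was analysed here, so the loss of Gata4 in ko cells was not checked. The 2 EC ATAC libraries came from 40000 sorted cells each of Rosa26fsTRAP hearts with Tie2-Cre, a driver that is also active in blood cells. Cells of the EC and of the ko and het libraries were dissociated with different commercial kits. GATA4 was biotinylated under Tie2-Cre or, for cardiomyocytes, under Tnnt2-Cre, with 3 libraries per lineage from pools of 15 to 20 ventricles. RNA came from 2 libraries of Tie2-Cre EC, 60000 cells each, and 3 of cardiomyocytes (CM). Cardiomyocyte ATAC was not used here. The labels do not state whether libraries of a group stem from different litters, and p-values measure the spread between these libraries alone.

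Open chromatin marks places where nucleosomes have been displaced, and away from gene starts it is a usual feature of enhancers and insulators. GATA4 is a zinc-finger transcription factor that binds GATA sequences in cardiac muscle, endocardium and other tissues. In endothelial cells, ETS-family factors such as FLI1, ETS1 and ERG, together with SOX-F, FOX and TAL1 proteins, are well known to act at such distal sites.

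The EC label was checked against marker genes. All 10 endothelial markers were higher in EC RNA than in CM RNA, and their summed level was 5169 to 5256 counts scaled to library size (CPM) in EC, against 681 to 783 CPM in CM. All 7 cardiomyocyte markers were lower in EC, at a sum of 409 to 426 CPM in EC and 50847 to 58795 CPM in CM. Blood and macrophage markers summed to 32.8 to 38.3 CPM in EC and 170 to 246 CPM in CM, with 4 of the 7 tested higher in EC and 3 lower. Markers of epicardial, fibroblast and mural cells summed to 719 to 739 CPM in EC and 1420 to 1828 CPM in CM, with 4 of the 8 higher in EC and 3 lower. Over all 14851 genes tested, 37.5% were called higher in EC and 40.2% lower. No marker check exists for the ATAC cells. Library depth was 21682362 and 27660790 reads on genes in EC and 42948614 to 48393473 in CM. The ribosomal precursor Rn45s took 5.34% and 5.77% of EC reads and 0.118% to 0.200% of CM reads, and its part in the RNA results was not tested. ATAC peak lists held 55733 to 87496 peaks in ko, 67201 to 90326 in het, and 114599 and 130708 in EC. GATA4 lists held 2734 to 25936 peaks for Tie2-Cre and 3603 to 30447 for Tnnt2-Cre, so a region without a GATA4 peak is one where these lists record none, not one shown to be unbound.

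Members of the class that reach into annotated RefSeq promoters allow sequence to be shown, since no genome sequence was used. RefSeq promoter windows run from 250 bases before to 50 after a start, 300 bases each. Of 32851 such windows on build GRCm38.p6 (mm10), 791 lay wholly inside 662 of the regions without GATA4, at 679 genes. Of the 791, 471 belonged to protein-coding genes and 320 to long noncoding RNA genes. The distance rule used starts of the count table alone, and 717 windows lay more than 1 kb from every start in that table, and 372 belonged to genes that the table does not list. Among 357 windows of listed genes that lay over 1 kb from any listed start, 265 were inside the body of their own gene.

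The windows below are shown because they mark RefSeq starts within the regions at genes strongly transcribed in EC. After values were seen, windows more than 1 kb from every listed start were searched, though not on every chromosome. Among these, 49 windows of 39 genes had a peak in 6 of 6 ko and het libraries and RNA at least 4-fold higher in EC. The 7 of these genes with the highest EC level were taken. The counts are therefore not complete for the genome. Capitals mark every match, on either strand, to the short strings searched for GATA factors (AGATAA or AGATAG or TGATAA or TGATAG), for ETS (CAGGAAG or CCGGAAG), for AP-1 (TGACTCA or TGAGTCA), for SOX (ACAATG or ACAAAG), for FOX (TGTTTAC), for TEAD (ACATTCC), for the E-box (CAGCTG) and for CTCF (CCACTAG or AGGGGGC). Each sequence reads 5′ to 3′ on the strand of its gene.
Igf2 (mm10 chr7:142657447-142657746, minus strand): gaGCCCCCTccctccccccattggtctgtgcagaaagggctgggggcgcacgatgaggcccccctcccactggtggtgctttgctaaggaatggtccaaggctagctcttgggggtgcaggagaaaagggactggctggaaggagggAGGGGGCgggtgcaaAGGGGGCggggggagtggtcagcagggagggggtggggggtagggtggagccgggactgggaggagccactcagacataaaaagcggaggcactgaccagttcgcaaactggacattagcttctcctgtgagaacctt
Ece1 (mm10 chr4:137913308-137913607, plus strand): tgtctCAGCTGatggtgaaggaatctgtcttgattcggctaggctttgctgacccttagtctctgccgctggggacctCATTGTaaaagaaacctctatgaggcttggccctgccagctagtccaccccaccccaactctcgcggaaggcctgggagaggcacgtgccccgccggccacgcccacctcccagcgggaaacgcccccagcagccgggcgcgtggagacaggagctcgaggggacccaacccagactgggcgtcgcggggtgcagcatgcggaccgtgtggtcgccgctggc
Cald1 (mm10 chr6:34598254-34598553, plus strand): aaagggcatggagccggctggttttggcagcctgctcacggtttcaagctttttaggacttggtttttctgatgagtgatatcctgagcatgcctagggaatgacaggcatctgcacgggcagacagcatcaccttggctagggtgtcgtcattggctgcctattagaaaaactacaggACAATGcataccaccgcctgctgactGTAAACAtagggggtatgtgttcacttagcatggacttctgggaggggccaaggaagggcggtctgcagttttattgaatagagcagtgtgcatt
Adgrf5 (mm10 chr17:43360181-43360480, plus strand): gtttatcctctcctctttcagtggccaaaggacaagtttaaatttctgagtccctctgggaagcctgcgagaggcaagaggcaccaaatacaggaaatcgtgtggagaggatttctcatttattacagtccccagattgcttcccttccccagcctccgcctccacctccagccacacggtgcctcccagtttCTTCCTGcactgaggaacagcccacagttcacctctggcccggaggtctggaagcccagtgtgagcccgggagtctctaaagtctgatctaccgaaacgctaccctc
Fblim1 (mm10 chr4:141599949-141600248, minus strand): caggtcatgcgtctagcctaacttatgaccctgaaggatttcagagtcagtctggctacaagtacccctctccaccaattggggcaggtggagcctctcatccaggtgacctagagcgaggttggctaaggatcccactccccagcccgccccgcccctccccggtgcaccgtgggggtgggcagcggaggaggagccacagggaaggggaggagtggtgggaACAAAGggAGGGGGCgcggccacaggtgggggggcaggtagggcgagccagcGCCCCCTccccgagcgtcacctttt
Fgd5 (mm10 chr6:91978715-91979014, plus strand): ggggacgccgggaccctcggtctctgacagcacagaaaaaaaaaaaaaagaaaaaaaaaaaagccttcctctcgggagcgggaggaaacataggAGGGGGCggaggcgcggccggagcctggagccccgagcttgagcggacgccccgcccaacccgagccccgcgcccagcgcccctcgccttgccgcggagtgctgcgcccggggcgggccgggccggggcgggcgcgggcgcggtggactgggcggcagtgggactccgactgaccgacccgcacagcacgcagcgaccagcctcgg
Prickle2 (mm10 chr6:92534812-92535111, minus strand): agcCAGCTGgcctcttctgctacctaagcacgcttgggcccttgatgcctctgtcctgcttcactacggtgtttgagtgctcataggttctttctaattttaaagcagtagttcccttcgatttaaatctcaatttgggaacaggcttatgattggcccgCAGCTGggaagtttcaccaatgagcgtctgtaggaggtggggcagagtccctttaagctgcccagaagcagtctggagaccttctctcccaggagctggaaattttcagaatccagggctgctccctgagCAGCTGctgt

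None of the 7 printed windows held a GATA string, 1 held an ETS string (Adgrf5), and 3 held CTCF strings (Igf2, Fblim1 and Fgd5). Ece1 encodes the endothelin-converting enzyme, and its printed start lay 51221 bp inside the gene from the listed one, in the region chr4:137912801-137914546. That region ranked at the 90.3, 74.5 and 81.1 percentile of peak fold in the ko libraries, the 70.2, 81.4 and 84.7 percentile in het, and the 91.8 and 93.5 percentile in EC. Ece1 RNA measured 1507 and 1461 CPM in EC, against 132, 151 and 118 CPM in CM (log2 fold change 3.47 ± 0.10 SE, adjusted p = 2.57e-10, edgeR). Adgrf5, an adhesion G-protein-coupled receptor of endothelium, had 398 and 378 CPM in EC and 45.4, 51.8 and 52.0 CPM in CM. Fgd5, an exchange factor for CDC42 in endothelial cells, had 202 and 212 CPM in EC and 35.2, 42.2 and 36.4 CPM in CM. Cald1 encodes the actin-binding protein caldesmon and Fblim1 a filamin-binding adaptor, at 523 ± 3.85 and 271 ± 5.34 CPM in EC (SD, n = 2). Prickle2, of the planar cell polarity pathway, averaged 149 ± 1.56 CPM in EC and 25.2 ± 3.90 CPM in CM (SD, n = 2 and 3). Igf2, the imprinted fetal growth factor gene, averaged 13417 ± 77.0 CPM in EC and 1188 ± 105 CPM in CM (SD, n = 2 and 3). Counts per gene cannot say which start a transcript used.

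Of the sets of windows compared, those inside regions without GATA4 had the lowest share with a GATA string. The class was chosen for the absence of GATA4 peaks, so this share is not independent of the selection. At least 1 GATA string occurred in 16.1% of the 791 windows inside regions without GATA4, in 30.1% of 993 windows inside regions with GATA4, and in 29.8% of all windows. The windows were GC-rich, with a median GC content of 58% in regions without GATA4 and 57% in regions with GATA4, against 52.7% over all windows. Among windows of 50 to 65% GC, a range chosen after the GC content was seen, the GATA share was 17.7% of 470, 30.4% of 546 and 23.3% of 14129. ETS strings occurred in 24.7%, 22.1% and 20.9% of windows in the same 3 sets, and within that GC range in 25.1%, 22.5% and 26.2%. CTCF strings occurred in 17.4%, 19.8% and 13.0%, and E-boxes in 19.5%, 17.5% and 16.3%. SOX strings occurred in 24.1%, 25.98% and 28.6%. AP-1, FOX and TEAD strings were found in 6.57%, 3.92% and 4.55% of windows inside regions without GATA4, against 6.45%, 2.92% and 5.04% of windows inside regions with GATA4 and 5.20%, 3.65% and 3.85% of all windows. Among the 12103 windows over 1 kb from every listed start, where most of the 791 lie, shares were 38.3% for GATA, 17.5% for ETS, 8.49% for CTCF, 17.3% for E-boxes, 35.4% for SOX, 6.25% for AP-1, 4.82% for FOX and 4.80% for TEAD. Of these windows, 4238 fell within that GC range, with shares of 27.7% for GATA and 22.7% for ETS. These shares have no replicates and describe 662 regions only. A match is a run of letters, not a site of binding.

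The regions without GATA4 also held 14 of the 1005 RefSeq microRNA hairpins, in 10 regions, whereas regions with GATA4 held 2. A pair of regions held more than 1 hairpin, and 5 of their mature microRNAs are shown with the seed, bases 2 to 8, in capitals.
mmu-miR-23a-3p (mm10 chr8:84208563-84208583, plus strand): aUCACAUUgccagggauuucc
mmu-miR-27a-3p (mm10 chr8:84208727-84208747, plus strand): uUCACAGUggcuaaguuccgc
mmu-miR-24-3p (mm10 chr8:84208875-84208896, plus strand): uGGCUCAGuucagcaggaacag
mmu-miR-322-5p (mm10 chrX:53054306-53054327, minus strand): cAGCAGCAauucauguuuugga
mmu-miR-503-5p (mm10 chrX:53054027-53054049, minus strand): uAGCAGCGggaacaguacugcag
No seed was shared in full among them. Those of miR-322-5p and miR-503-5p differ only in base 8, and those of miR-23a-3p and miR-27a-3p also differ in only 1 base. The region around Mir23a, Mir27a and Mir24-2, chr8:84207680-84212953, spanned 5274 bp and ranked at the 84.0 and 87.2 percentile in the EC libraries. It ranked at the 0.659, 5.74 and 3.07 percentile in ko, and at the 0.805 and 10.4 percentile in 2 het libraries, with no peak in the other. The region with Mir322 and Mir503, chrX:53049853-53054772, ranked at the 92.4 and 92.2 percentile in EC, between 29.6 and 42.7 in ko, and between 27.5 and 50.4 in het. Levels of mature microRNAs are not measured by polyadenylated RNA counts and are not given.

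How often the regions recurred in ko and het cells was part of the selection and is described without a test. Of the 62164 regions without GATA4, 28.7% had a peak in none of the 6 ko and het lists and 22.6% in all 6. Of the 24665 with GATA4, 8.56% had a peak in none and 51.4% in all 6. Regions that just met the selection, with a peak in 4 lists, numbered 5832, with median ranks at the 47.2 and 54.1 percentile in EC replicates 2 and 3 and a median width of 483 bp. Regions that just missed it, with 3 lists, numbered 5365, with median ranks of 39.2 and 48.3 and a width of 442 bp. At the distance limit, 75 regions of the class lay 1000 to 1100 bp from a start, and 87 that otherwise met the rule lay 900 to 1000 bp from one. Among the 26610 selected, 14020 had a peak in all 6 libraries, 6758 in 5 and 5832 in 4.

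**Figure D1:**
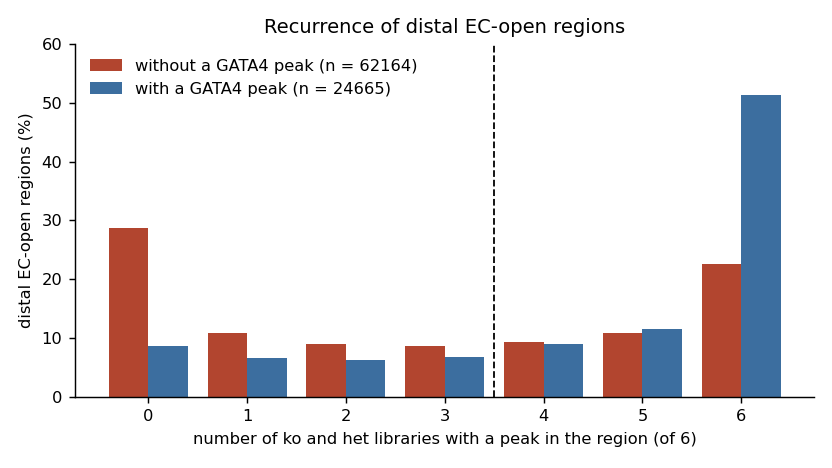
Bars give the share of distal EC-open regions (vertical axis, percent) by the number of ko and het libraries, of 6, with a peak in the region (horizontal axis), for regions without and with a GATA4 peak. Regions right of the dashed line, with 4 or more, were selected; the share with 6 was 22.6% without GATA4 and 51.4% with GATA4.

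Regions without GATA4 lay in introns and between genes in nearly equal numbers. The midpoint lay in an intron for 46.4% of regions without GATA4 and 45.8% of regions with GATA4, in an exon for 5.13% and 3.55%, and between genes for 48.5% and 50.7%. The median distance to the nearest start was 28040 bp, against 36570 bp for regions with GATA4. Regions without GATA4 were narrower, at a median of 605 bp against 867 bp, and 2.33% against 6.50% were wider than 2000 bp. The X chromosome held 516 of them, 1.94% of the class, against 0.931% of regions with GATA4 and 1.84% of all 101038 regions open in both EC libraries. Because the distance rule used midpoints, 87 wide regions still contained a start. The nearest GATA4 peak lay a median of 10836 bp away, within 500 bp for 2.50% of the regions, within 5 kb for 26.3% and within 50 kb for 90.9%.

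Peaks of the regions without GATA4 ranked lower than those with GATA4 in each of the 8 ATAC libraries, which is a description, since peaks in these lists chose both classes. The measure was the percentile rank of a peak's fold over background within its own library, where 100 is the strongest. Median ranks of regions without GATA4 were 58.6, 55.2 and 46.3 in ko replicates 2, 3 and 4, 59.1, 56.9 and 50.8 in the same het replicates, and 62.6 and 66.8 in EC. Median ranks of regions with GATA4 were 69.6, 66.1 and 58.4 in ko, 70.3, 66.5 and 63.4 in het, and 77.1 and 79.96 in EC. The difference averaged -11.9 percentile points and was negative in 8 of 8 libraries. In the 6 ko and het libraries alone it averaged -11.2 points. The libraries rank the same regions and are not independent replicates of this difference, so no p is given. Among regions of 400 to 800 bp, a limit added because the classes differed in width, the difference shrank to -4.31 points (13749 regions without and 6761 with GATA4). It stayed negative in 8 of 8 libraries, from -1.64 in ko replicate 4 to -6.36 in EC replicate 2.

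**Figure D2:**
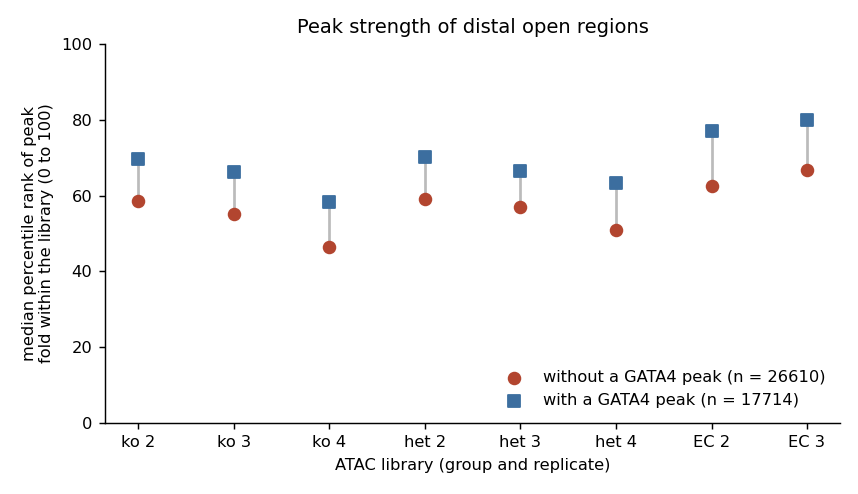
Points give the median percentile rank of peak fold within each ATAC library (vertical axis, 0 to 100) for distal regions without GATA4 (circles) and with GATA4 (squares), in ko, het and EC libraries along the horizontal axis. Circles lie below squares in 8 of 8 libraries; lines join the pair of one library and are not errors.

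Loss of GATA4 in endothelium was the question of the ko and het comparison, and regions without GATA4 offer a comparison for it. Because the selection itself used ko and het lists, ko and het were compared over the 62164 regions before that step. A peak was found in 52.7%, 49.97% and 32.8% of them in ko replicates 2, 3 and 4, against 54.9%, 52.8% and 38.8% in het. The groups overlapped, but ko lay below het at each replicate number, and replicate 4 was lowest in both genotypes. The mean was 45.2% ± 10.8 in ko and 48.8% ± 8.79 in het (SD, n = 3 each), a difference of -3.66 percentage points (exact two-sided permutation test, p = 0.5, where 3 against 3 cannot go below 0.1). With ko and het paired by number, an exact sign-flip test gave p = 0.25, the smallest that 3 pairs allow. Without ko replicate 4, the shortest list, the unpaired difference turned to 2.52 points, and with all 6 lists cut to one length it was -0.27 points.

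Regions with GATA4 gave 79.4%, 75.8% and 59.8% in ko, against 82.0%, 77.3% and 66.7% in het. Regions without GATA4 were therefore less often found by 26.7, 25.8 and 27.0 points in ko, against 27.1, 24.5 and 27.9 points in het. The gap between the classes differed between ko and het by 0.02 points (exact permutation test, p = 1), less than its SD of 0.598 in ko and 1.76 in het. The exact permutation test of 3 against 3 libraries cannot pass a threshold of 0.05, whatever the size of the gap. It therefore sets no limit on an effect, and the lists also differ in length.

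**Figure D3:**
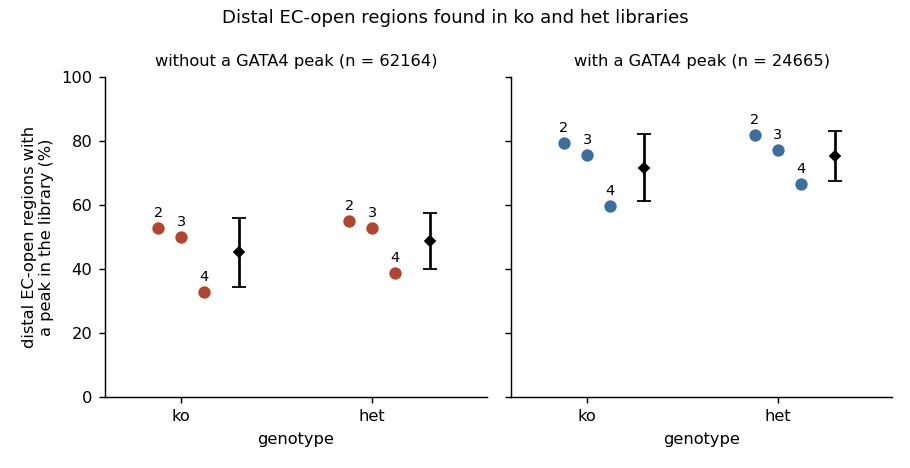
Points give the share of distal EC-open regions with a peak (vertical axis, percent) in each ko and het library, numbered by replicate, for regions without GATA4 (left) and with GATA4 (right). Diamonds and bars give mean ± SD of 3 libraries; ko and het overlap in both panels and replicate 4 is lowest in each group.

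Regions that separated the genotypes completely were few. Of the 62164, 84 (0.135%) had a peak in all 3 ko lists and no het list, and 233 (0.375%) the reverse. Of the 24665 regions with GATA4, 29 (0.118%) and 73 (0.296%) had these patterns, shares close to those without GATA4. With all lists cut to equal length, the counts were 175 and 161 without GATA4, and 58 and 68 with GATA4. Within the selected class, 442 regions, 0.711% of the 62164, had a peak in 3 ko lists and 1 het list. Another 1116, or 1.80%, had a peak in 1 ko list and 3 het lists. With GATA4 these shares were 0.580% and 1.56% of the 24665. At equal length these patterns held 677 and 689 regions without GATA4, and 287 and 289 with GATA4. Without GATA4, the het patterns outnumbered the ko patterns in the lists as deposited, which are longer in het. At equal length this did not hold for the first pair of patterns. Among selected regions, the median rank averaged 53.4 ± 6.34 in ko and 55.6 ± 4.32 in het (SD, n = 3 each), a difference of -2.24 percentile points, given without a test because these lists chose the regions. Without ko replicate 4 it turned to 1.29 points.

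Ranks of individual regions were closely shared between the EC libraries and less so between EC and the Cdh5 cohort. Spearman's rho across regions was 0.923 for the EC pair, 0.444 to 0.474 between EC and ko and 0.416 to 0.491 between EC and het. It was 0.603 to 0.665 among ko libraries, 0.572 to 0.679 among het libraries and 0.574 to 0.690 between ko and het. Regions are not independent replicates, and the cohorts differ in driver, reporter, cell number, dissociation kit and the length of the peak lists, which cannot be told apart. Peaks reached 52841 bp in EC lists and no more than 3427 bp in ko and het lists. In the lists as deposited, the mean EC rank exceeded the mean ko and het rank by more than 50 points in 790 regions, and the reverse held in 5. With all 8 lists cut to 55733 peaks, an alternative added later, the counts were 329 and 185 among the 13991 regions still ranked. In these counts the excess on the EC side was smaller but remained, and its cause was not tested. The median EC minus ko and het rank was 8.60 points as deposited and -6.82 points at equal length. Of the 790, 404 could still be ranked and 258 still exceeded 50 points. The 790 were wide, with a median of 1060 bp against 605 bp for the class, and 35.6% of them lay within 5 kb of a start, against 9.33% of the class. Median EC level of their nearest gene was 47.5 CPM over 567 tested pairs, against 23.3 CPM over 12763 pairs of the class.

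Regions beside Id1, Id3 and Notch1 were among the 10 with the widest gaps in the lists as deposited. The region chr2:152737380-152740499 lay 2689 bp from the start of Id1, which encodes an inhibitor of basic helix-loop-helix factors induced by BMP signalling. It ranked at the 93.6 and 93.5 percentile in EC, at 0.582, 0.0536 and 0.168 in ko, and at 0.794 and 0.747 in 2 het libraries, with no peak in het replicate 4. The region chr4:136145405-136149546, 3654 bp from the start of Id3, its close relative, ranked at 93.3 and 93.4 in EC and between 0.0888 and 1.37 in ko, with 0.609 and 8.94 in 2 het libraries and no peak in het replicate 4. An intronic region of Notch1, chr2:26486857-26488190, ranked at 89.4 and 88.3 in EC, and at 4.67 and 5.39 in ko and 0.852 and 0.234 in het where it had a peak. The other 7 lay near Plekhg2, Sparcl1, Cracr2b, Flna, Mir675, Mir3074-2 and Cfap45. At equal list length, 5 of the 10 could still be ranked, with gaps of 85.7 points at Id1, 85.1 at Id3, 92.2 at Plekhg2, 83.7 at Cracr2b and 67.6 at Mir3074-2, and the Notch1 region could not. These regions were chosen after their values were seen.

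Several of the strongest regions lay far from endothelial genes. The highest mean rank over 8 libraries, 99.99, belonged to chr1:24611453-24616268, which overlaps the pseudogenes Gm10222 and Gm10925 and is known as a nuclear copy of mitochondrial DNA. Its peak fold was 20.1, 19.9 and 19.8 in ko, 20.0, 19.7 and 20.2 in het, and 36.5 and 34.04 in EC. The next, chr8:20415919-20429476, was 13558 bp wide and covered the start of the transcribed pseudogene 2610005L07Rik. Others of the first 10 lay in Uggt2, in Fbxo46, at Gatad2b (chr3:90292028-90294545), and nearest to Riok2, Myt1l, Gm16432, Igf2bp3 and Zfp960. Folds are the authors' and are read only within a library.

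Regions without GATA4 were mostly scattered. Joined across gaps of up to 10 kb, they formed 20936 clusters, of which 16712 held 1 region, and 37.2% of regions had a neighbour in their cluster. Clusters of 5 or more numbered 88 and held 490 regions. The largest held 10 regions over 32.8 kb of Firre (chrX:50590724-50623491), an X-linked long noncoding RNA gene whose repeats bind CTCF, with no selected GATA4 region among them. Firre had 11 regions in all, 10 of them inside the gene, and mean ranks of 49.7 to 86.0 in EC and 45.1 to 77.1 in ko and het. Its RNA was 53.1 and 50.2 CPM in EC, against 50.2, 63.4 and 59.0 CPM in CM, and the groups overlapped (log2 fold change -0.15 ± 0.10 SE, adjusted p = 0.191, edgeR). A cluster of 8 lay over Tnk2 (chr16:32676839-32711151), without a GATA4 region. Clusters of 7 lay between Lect2 and Tgfbi (chr13:56549203-56586520) and across Stil and Tal1 (chr4:115038260-115086030), with 1 and 2 GATA4 regions among them.

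RNA was then compared at the genes nearest to the regions, a measure the selection did not use. Each region was given to the nearest start within 50 kb, which placed 17800 of the 26610 regions at 10079 genes. Over all 14851 genes tested, 37.5% were higher in EC and 40.2% lower in EC (adjusted p under 0.05, edgeR). Genes without a region were higher in EC in 32.7% and lower in 43.2% of 7733 cases, with a median log2 fold change of -0.16. Genes with 1 region were split evenly, at 39.3% higher and 39.3% lower of 3914, with a median of -0.01. With 2 to 4 regions, 46.6% of 2938 genes were higher and 34.4% lower, with a median of 0.22. With 5 to 9 regions, 55.1% of 243 were higher and 30.0% lower, with a median of 0.48. The median over all genes at 1 place was -0.05, and no test was made of these shares.

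**Figure D4:**
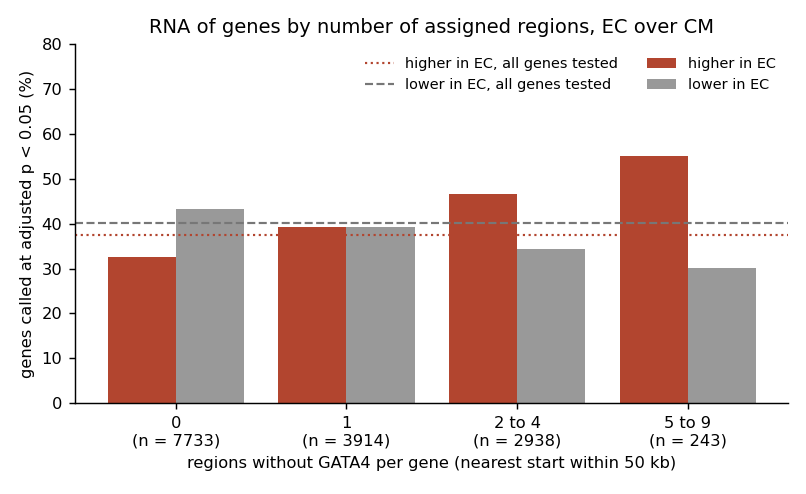
Bars give the percent of tested genes called higher or lower in EC than in CM RNA (vertical axis) by the number of regions without GATA4 assigned to the gene (horizontal axis, with the number of genes). Dotted and dashed lines give 37.5% higher and 40.2% lower over all genes tested; the share higher was 32.7% with 0 regions and 55.1% with 5 to 9.

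The order was alike for regions with GATA4. Genes with 2 to 4 of those were higher in EC in 50.5% and lower in 31.8% of 1757 cases, and genes with 5 to 9 in 57.9% and 29.8% of 57. Genes with regions of both classes were higher in 47.5% of 3323 cases, genes with only regions without GATA4 in 38.9% of 3776, genes with only regions with GATA4 in 36.4% of 1763, and genes with neither in 31.6% of 5970. With at least 3 regions without GATA4 and none with it, 45.1% of 510 genes were higher and 36.7% lower. With at least 3 regions with GATA4 and none without it, the shares were similar, at 46.8% of 111 higher and 37.8% lower. The number of regions a gene can receive also depends on the space around its start, whose part was not tested.

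Endothelial gene lists carried more regions per gene than the gene table as a whole, and so did sarcomere genes, which were lower in EC. Regions per gene were 2.67 for endothelial transcription factors, 2 for the Notch pathway, 1.94 for VEGF and angiopoietin genes, 1.80 for arterial, venous and coronary genes, 1.79 for endothelial genes and 1.74 for endocardial genes, against 0.739 for all genes. BMP and TGF-beta genes had 1.52, cushion mesenchyme genes 1.47, epicardial, fibroblast and mural genes 1.33, and sarcomere genes 1.31. Cardiomyocyte transcription factors had 0.952 and blood and macrophage genes 0.7. The value for all genes covers 24101 genes, tested for RNA or not, whereas most listed genes were tested. The 14832 tested genes at 1 place held 12763 of the regions. Regions with GATA4 numbered 55 at the 24 endothelial transcription factors and 44 at the 24 endothelial genes, against 10520 at all 24101 genes. The excess at these endothelial lists was therefore not particular to regions without GATA4. At the 26 sarcomere genes, regions with GATA4 numbered 10. The lists were written with earlier results known, and no test was made of them.

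**Figure D5:**
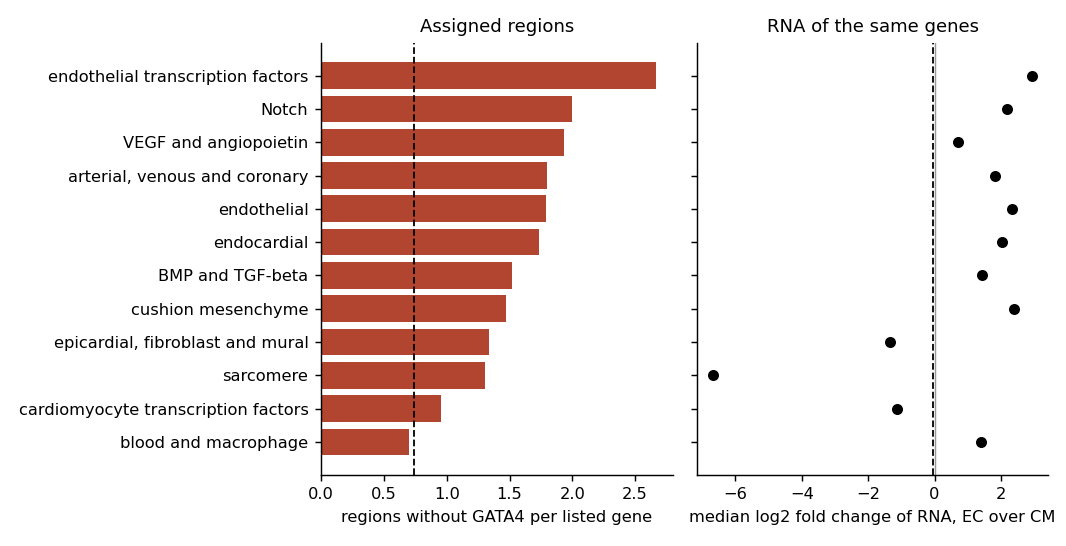
Bars (left) give regions without GATA4 per gene of each list, and points (right) the median log2 fold change of RNA, EC over CM, of the same genes. Dashed lines give all genes, at 0.739 regions per gene and a median of -0.05; sarcomere genes have 1.31 regions per gene at a median of -6.69.

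Among 24 endothelial transcription factors, 22 were higher in EC and 2 lower, 22 had at least 1 region without GATA4, and 20 had at least 1 with GATA4. Elk3, an ETS factor of endothelium, had 6 regions without GATA4, all in its introns, with mean EC ranks of 56.9 to 81.3 and mean ko and het ranks of 11.6 to 51.9. Elk3 RNA was 359 and 354 CPM in EC, against 32.7, 35.4 and 34.3 CPM in CM (log2 fold change 3.38 ± 0.07 SE, adjusted p = 4.01e-11, edgeR). Fli1, an ETS factor of blood and endothelium, had 6 regions without GATA4, 2 of them intronic, beside 8 with GATA4. Its RNA was 124 and 133 CPM in EC and 19.4, 20.4 and 22.3 CPM in CM. Ets1, another of the family, had 5 without and 4 with GATA4, and its RNA was 539 and 504 CPM in EC and 97.5, 94.2 and 87.2 CPM in CM. Epas1 encodes HIF-2α and had 4 regions, each with peaks in 6 of 6 ko and het libraries, at 259 and 282 CPM in EC and 13.4, 15.8 and 13.2 CPM in CM. Each of these 4 genes was called higher in EC, as were 37.5% of all 14851 genes tested.

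Tal1, a basic helix-loop-helix factor of blood and endothelium, had 5 regions. The strongest, chr4:115052106-115053314, lay 3716 bp upstream of the start, with mean ranks of 96.0 in EC and 74.0 in ko and het. Tal1 RNA was 83.5 and 80.4 CPM in EC, against 12.4, 11.3 and 8.42 CPM in CM (log2 fold change 2.94 ± 0.13 SE, adjusted p = 7.70e-09, edgeR). Stil, its neighbour, held another of the 5 in an exon, chr4:115038260-115038578. Sox18, a SOX-F factor of vessels, had 2 regions, and chr2:181658678-181660224 ranked at 88.9, 85.8 and 82.2 in ko, 86.3, 84.0 and 88.9 in het, and 96.9 and 97.2 in EC. Sox18 RNA was 19.3 and 16.8 CPM in EC and 1.12, 1.11 and 1.86 CPM in CM.

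In the Notch list, 14 of 18 tested genes were higher in EC and 3 lower, and 16 of 19 had a region. Notch1, the receptor needed in endocardium for valve and trabecular development, had 7 regions without and 1 with GATA4. Of the 7, 3 were intronic and 3 had peaks in all 6 ko and het libraries. The upstream region chr2:26525273-26526303, 21966 bp from the start, had nearly equal mean ranks of 87.9 in EC and 87.3 in ko and het. Notch1 RNA was 380 and 385 CPM in EC, against 38.9, 36.1 and 38.4 CPM in CM (log2 fold change 3.34 ± 0.07 SE, adjusted p = 4.14e-11, edgeR). Heyl, a Notch-induced repressor, and Mfng, which adds sugars to Notch receptors, had 4 regions each. Heyl RNA was 11.1 and 10.8 CPM in EC and 0.520, 0.541 and 1.05 CPM in CM. Mfng RNA was 4.11 and 4.30 CPM in EC and 0.479, 0.635 and 0.898 CPM in CM. Both were higher in EC.

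Each of the 24 endothelial genes was higher in EC, and 21 had a region without GATA4, 43 regions in all, while 15 had one with GATA4, 44 in all. Cdh5, the endothelial cadherin, had 4 regions, and the 1 nearest to its start, chr8:104100903-104104661, was wide enough to cover the start itself and had mean ranks of 93.3 in EC and 41.3 in ko and het. Cdh5 RNA was 1032 and 1003 CPM in EC, against 64.7, 73.9 and 83.1 CPM in CM (log2 fold change 3.78 ± 0.10 SE, adjusted p = 1.61e-10, edgeR). Kdr, the main VEGF receptor, had 3 regions. The region chr5:76013749-76014651 lay 35772 bp from the Kdr start and ranked at 96.2, 88.8 and 94.1 in ko, 89.8, 94.997 and 89.0 in het, and 83.3 and 85.8 in EC. Kdr RNA was 882 and 882 CPM in EC and 136, 149 and 133 CPM in CM. Flt1, a VEGF receptor that also acts as a decoy, had 4 regions and 280 and 301 CPM in EC, against 43.3, 46.5 and 44.1 CPM in CM. Clec14a, an endothelial lectin, had 3 regions without and none with GATA4, none of them in all 6 libraries. Cldn5, a tight-junction claudin, had 1 region (chr16:18732991-18734064) and RNA of 3.79 and 4.12 CPM in EC, against 2.06, 1.58 and 2.96 CPM in CM. Its call (adjusted p = 0.016, edgeR) was lost without EC replicate 2 or CM replicate 2, at adjusted p = 0.0638 and 0.0681.

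In the VEGF and angiopoietin list, 10 of 16 genes were higher and 5 lower. Angpt2, a ligand that opposes ANGPT1 at the TIE2 receptor, had the most regions of that list, 7 without and 0 with GATA4, with mean ranks of 44.1 to 83.7 in EC. Some of these regions lay beyond the gene, in introns of Mcph1. Angpt2 RNA was low, at 1.45 and 1.09 CPM in EC and 1.54, 2.05 and 1.73 CPM in CM (log2 fold change -0.47 ± 0.30 SE, adjusted p = 0.175, edgeR). Nrp2, a co-receptor of veins and lymphatics, had 4 regions and 66.7 and 69.1 CPM in EC, against 30.8, 33.0 and 32.5 CPM in CM. In the arterial, venous and coronary list 15 of 20 genes were higher and 5 lower. Apln, which encodes the ligand apelin, was lower in EC, at 1.70 and 1.13 CPM in EC and 3.83, 4.19 and 9.69 CPM in CM, with 3 regions. Fabp4, a fatty acid carrier, had 4 regions and was called lower, but CM replicate 3 stood at 43.9 CPM beside 11.1 and 10.3 CPM in the other CM libraries. Fabp4 was not called without EC replicate 1 (adjusted p = 0.135), without EC replicate 2 (adjusted p = 0.0822) or by DESeq2 (adjusted p = 0.0676).

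In the endocardial list, 17 of 19 tested genes were higher and 2 lower. Wnt4, a WNT ligand of endocardium, had 6 regions without and 1 with GATA4. Its RNA was 60.0 and 65.5 CPM in EC, against 1.83, 1.74 and 1.504 CPM in CM (log2 fold change 5.21 ± 0.12 SE, adjusted p = 6.71e-11, edgeR). Cgnl1, a junctional protein, had 4 regions, each with peaks in 6 of 6 ko and het libraries, and was higher in EC at 1275 and 1264 CPM, against 342, 387 and 318 CPM in CM. Dkk3, a secreted protein of the Dickkopf family, had 4 regions and was lower in EC, at 45.5 and 46.1 CPM in EC and 121, 129 and 87.9 CPM in CM. Tmem100, a target of ALK1 signalling, had 3 regions, and chr11:90054238-90055121 ranked at 87.8, 93.0 and 85.1 in ko, 87.9, 96.4 and 78.5 in het, and 87.7 and 91.1 in EC. Vwa1 had 1 exonic region, chr4:155769603-155771085, and was lower in EC, at 0.744 and 0.0453 CPM in EC and 2.48, 2.17 and 2.90 CPM in CM.

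Cushion mesenchyme and BMP genes were mostly higher in EC, in 14 of 17 and 15 of 23 cases, with 2 and 4 lower. Which of the sorted Tie2-Cre cells carried these RNAs was not tested. Snai1, the repressor that drives endocardial to mesenchymal transition, had 4 regions and 14.3 and 15.9 CPM in EC, against 0.395, 0.447 and 0.494 CPM in CM (log2 fold change 5.07 ± 0.20 SE, adjusted p = 2.08e-09, edgeR). Pdgfra, a receptor of mesenchyme, had 3 regions and Msx2, a homeodomain factor of the cushions, 3. Msx2 was called higher but not without EC replicate 2 (adjusted p = 0.13). Smad3, a TGF-beta effector, had 5 regions and was lower in EC, at 64.1 and 55.6 CPM in EC and 77.8, 73.1 and 73.5 CPM in CM. Id3 and Acvrl1, which encodes the receptor ALK1, had 4 and 3 regions and were higher.

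Each of the 26 sarcomere genes was lower in EC, yet 17 had a region without GATA4, 34 regions in all, against 10 with GATA4. Nebl encodes the thin-filament protein nebulette and had 4 regions without and 0 with GATA4. An intronic one, chr2:17685990-17686681, had mean ranks of 82.9 in EC and 64.1 in ko and het. Nebl RNA was 2.02 and 1.63 CPM in EC, against 302, 296 and 299 CPM in CM (log2 fold change -7.34 ± 0.12 SE, adjusted p = 1.67e-11, edgeR). Myl2, the ventricular myosin light chain, had 3 regions, and chr5:122088904-122089497 had mean ranks of 76.4 in EC and 87.4 in ko and het. Myl2 RNA was 56.3 and 41.9 CPM in EC and 14473, 13100 and 14966 CPM in CM. Tpm1, tropomyosin, had 4 regions and 421 and 409 CPM in EC, against 4079, 3735 and 3671 CPM in CM. Their openness in cardiomyocytes is not given. Among 21 cardiomyocyte transcription factors, 8 were higher and 13 lower in EC. Tead1 (4 regions) was higher by a log2 fold change of 0.22 but was not called without EC replicate 1, EC replicate 2 or CM replicate 2 (adjusted p = 0.0726, 0.0595 and 0.0672), and Hand1 and Hopx (3 each) were lower.

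Of the remaining lists, 6 of 18 epicardial, fibroblast and mural genes were higher in EC and 11 lower, with 24 regions. Cspg4, the pericyte proteoglycan NG2, had 4 regions, each with peaks in 6 of 6 ko and het libraries, and was lower in EC at 7.98 and 8.87 CPM, against 56.0, 52.8 and 58.7 CPM in CM. Tcf21, an epicardial factor, had 4 and was higher. Of 17 blood and macrophage genes tested, 9 were higher and 5 lower, with 14 regions among the 20 listed. Itga2b (2 regions) was higher at 13.5 and 12.54 CPM in EC and 3.85, 4.001 and 3.01 CPM in CM. Runx1 (2 regions) was not called (adjusted p = 0.259, edgeR).

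The genes with the most regions without GATA4 were Firre, Mtss1l and Myh9, with 11 each. Myh9, the heavy chain of nonmuscle myosin IIA, had 8 of them in its introns and no region with GATA4 was assigned to it, although a GATA4 peak lay 300 bp from chr15:77835745-77836730. The strongest, chr15:77799975-77801613 and that region, had mean ranks of 94.3 and 92.1 in EC and 75.0 and 80.9 in ko and het. Myh9 RNA was 842 and 824 CPM in EC, against 328, 390 and 370 CPM in CM (log2 fold change 1.2 ± 0.08 SE, adjusted p = 1.82e-07, edgeR). Mtss1l, an actin and membrane regulator, was higher in EC at 126 and 121 CPM, against 15.7, 16.7 and 22.1 CPM in CM. Of its 11 regions, 1 lay inside the gene, and the others lay in introns of its neighbours Vac14 and Il34. N4bp1 had 10 regions and was not called (adjusted p = 0.365), nor was Rassf3 with 9 (adjusted p = 0.27). Cstad and Psd3, with 9 each, were lower in EC, and 2900026A02Rik and B4galt5, with 8 each, were higher. B4galt5, a galactosyltransferase, was not called without EC replicate 1 (adjusted p = 0.173). The gene 9430078K24Rik, with 8, was not tested.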

How the data were processed

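ATAC and GATA4 peaks were deposited by the authors as 1 list per library with a fold over background (a ratio), −log10 p and −log10 q, and MACS2 appears in the deposited peak names. RNA was deposited by the authors as read counts per gene, from featureCounts 1.6.3 with forward-stranded counting on mm10, per the file headers. The submitters' processing notes list, without roles, MACS2 2.2.4, deepTools 3.3.1, Bowtie2 2.2.9, STAR 2.7.3a and Bowtie 1.1.1. The sources used here do not say if peak calling had a control library.

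Peaks sharing at least 1 bp were joined (Python 3.11.15, numpy 2.4.6, pandas 2.3.3, scipy 1.17.1; figures with matplotlib 3.10.9). A gene's start was its outermost exon boundary, by strand, in the table of counts; 144 genes on several chromosomes or strands and 176 symbols with copies apart were left out when regions were given to genes. A library's rank is the percentile of the strongest overlapping peak's fold. Coordinates are mm10, counted from 1. Counts were fitted with edgeR 4.0.16 in R 4.3.3 (TMM, filterByExpr, quasi-likelihood test over all 14851 genes, Benjamini-Hochberg, threshold 0.05); DESeq2 1.42.0 was an alternative. SE was taken as log2 fold change over √F. CPM values come from these counts. The code was tested on simulated data. Depth is unknown for the peak lists, which also limits precision. EC and CM replicate pairs differed beyond sampling noise, with a chi-square per degree of freedom of 7.84 for EC and 13.4 to 33.9 for CM.

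The regions, gene lists and tests were chosen with earlier results of these data known. Named genes were the 10 with most regions, up to 3 per list by number of regions, and those nearest to the 10 strongest regions, to the 2 strongest per endothelial, endothelial transcription factor and endocardial list, and to the 5 largest clusters. Tests planned on the ranks of selected regions are not reported, because the same lists chose the regions. The planned motif search in the regions themselves needs a genome sequence and was not run; RefSeq promoter windows were used in its place, a choice made after the reference was seen. The alternatives used lists cut to equal length, peaks with −log10 q over a limit of 5, other overlap and distance limits, other RNA scalings, no count filter, leaving out libraries in turn, and the replicate block.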

Additional observations from a re-analysis of the deposited data

How the results depend on the processing

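The number of regions in the class followed the peak lists: 26610 as given, 13794 with −log10 q of at least 5, 13994 with lists of equal length, 62164 without the ko and het step and 14020 with a peak in 6 of 6. It was 21545 to 29524 when 1 library was left out, and 24127 to 33046 under the other limits on distance and GATA4. The rank difference from regions with GATA4 was negative in every library under all 13 alternatives, but its size varied from -13.9 to -4.31 points; the value of -4.31 came at 400 to 800 bp width, an alternative added after seeing the data. It ran from -12.2 to -11.5 with 1 library left out. The ko minus het share ranged from -8.70 to 2.52 points with 1 library left out, the rank from -4.85 to 1.29, and the gap between classes from -0.69 to 1.01. That gap turned sign without het replicate 2 (-0.26), het replicate 4 (-0.69) and ko replicate 3 (-0.32). With the replicate block, that is pairing ko and het by number, the share difference was -3.66 points (ko below het in 3 of 3 numbers; exact sign-flip p = 0.25, the smallest that 3 pairs allow), the rank difference -2.24 points and the gap 0.02. Deviations of same-numbered ko and het libraries correlated at 0.0951, 0.0436 and 0.164, not all over 0.1, so the numbers were not taken as pairs, although each library correlated best with its own number. EC and CM numbers did not pair either (correlations between -0.02 and 0.02), and the replicate block gave 5248 genes higher and 5729 lower. Across alternatives 5163 to 5628 genes were higher and 5438 to 6314 lower. The median log2 fold change at genes with at least 5 regions moved to 0.86 within 20 kb (17 genes), 0.57 within 100 kb, 0.35 by host gene and 0.61 when a GATA4 peak within 500 bp counted as overlap, and the percent higher in EC was 50.5 to 58.8. Of 57 named genes tested, 5 lost their call in some alternative and 2 gained one (Firre and Fbxo46); the cause was not tested. Peak presence depends on list length, so small ko effects at single regions were not detectable.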
